A study of Mus musculus with 5 samples.

Results

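Ring1b was mapped in mouse embryonic stem cells by chromatin immunoprecipitation and sequencing (ChIP-seq), and the results below describe all 13516 peaks of the list that the authors called in vehicle-treated Ring1b fl/fl cells. The 3 deposited peak lists of the series hold 105219 peaks. The immunoprecipitated library came from Ring1b fl/fl embryonic stem cells given ethanol vehicle, and its control was a Ring1b ChIP from Ring1b fl/fl cells given 4-hydroxytamoxifen. In the label of the control library these cells are named a knockout of Ring1b. Drug or vehicle treatment lasted 24 h, followed by 48 h of culture, in the drug for the Ring1b fl/fl line. Both groups share the floxed Ring1b alleles, growth on irradiated mouse embryonic fibroblast feeders and fixation for 10 min in 1.2% formaldehyde. Chromatin was sheared to about 200 bp, and 3 µg of anti-Ring1b antibody was used. The sources used here do not name the recombinase that deletes the alleles or what drives it. Each group is 1 library, so no value below has a replicate error and no difference was tested. Intervals are exact (Clopper-Pearson) at the 95% level and cover only the counting error over peaks or genes.

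Ring1b, encoded by Rnf2, is the RING finger ubiquitin ligase of Polycomb repressive complex 1 (PRC1), which marks histones and compacts chromatin. In embryonic stem cells Polycomb complexes are known for sitting on CpG-rich starts of genes that later specify tissues, such as the Hox genes. Canonical PRC1 contains Cbx proteins that bind the histone mark of Polycomb repressive complex 2 (PRC2), and variant PRC1 contains other Pcgf proteins and can be brought to DNA by factors such as Kdm2b, E2f6 and the E-box binders Mga and Max. The width of a peak is the stretch of genome that the authors' peak caller marked as enriched in the vehicle library, given its control.

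Promoters under very wide peaks, and 1 without a peak, are shown first, from RefSeq (GRCm38.p6), as the 250 bases before a transcript start. Pax7, a regulator of muscle stem cells and neural crest, lay under the third widest peak (16640 bp), and Cbx8, a canonical PRC1 subunit, under the fifth (15767 bp). Nanog, a core pluripotency factor, had no peak and is shown for contrast. Capitals mark CpG dinucleotides, of which these 250 bases held 13, 22 and 3.
Pax7, chr4:139832969-139833218, minus strand: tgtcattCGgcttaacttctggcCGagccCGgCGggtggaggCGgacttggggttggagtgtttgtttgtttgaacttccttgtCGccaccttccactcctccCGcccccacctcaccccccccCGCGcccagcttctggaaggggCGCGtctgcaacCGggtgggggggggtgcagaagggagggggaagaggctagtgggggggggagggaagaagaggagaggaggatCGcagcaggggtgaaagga
Cbx8, chr11:119040914-119041163, minus strand: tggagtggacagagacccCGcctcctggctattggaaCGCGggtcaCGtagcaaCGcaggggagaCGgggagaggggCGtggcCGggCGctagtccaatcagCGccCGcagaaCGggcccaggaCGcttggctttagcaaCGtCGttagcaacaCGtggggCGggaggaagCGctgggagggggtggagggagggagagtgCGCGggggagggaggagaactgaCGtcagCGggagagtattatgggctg
Nanog, chr6:122707239-122707488, plus strand: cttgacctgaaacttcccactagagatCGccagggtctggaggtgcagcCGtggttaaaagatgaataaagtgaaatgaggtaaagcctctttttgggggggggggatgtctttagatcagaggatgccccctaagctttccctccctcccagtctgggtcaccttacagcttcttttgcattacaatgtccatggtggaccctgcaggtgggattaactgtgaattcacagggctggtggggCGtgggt

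The next 3 promoters belong to germline genes with much narrower peaks. Mael and Tdrd1 act in transposon silencing by small RNAs in germ cells, and Ddx4 is a germ cell RNA helicase. Capitals mark the E-box CACGTG, which each of these promoters held 1 time. All 3 stretches lay inside a Ring1b peak, of 1071 bp at Mael, 1191 bp at Ddx4 and 834 bp at Tdrd1.
Mael, chr1:166238745-166238994, minus strand: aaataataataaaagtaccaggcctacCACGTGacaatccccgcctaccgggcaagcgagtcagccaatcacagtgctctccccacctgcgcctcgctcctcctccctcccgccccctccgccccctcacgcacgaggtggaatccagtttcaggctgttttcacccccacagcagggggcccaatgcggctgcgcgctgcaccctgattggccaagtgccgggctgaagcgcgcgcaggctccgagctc
Ddx4, chr13:112652311-112652560, minus strand: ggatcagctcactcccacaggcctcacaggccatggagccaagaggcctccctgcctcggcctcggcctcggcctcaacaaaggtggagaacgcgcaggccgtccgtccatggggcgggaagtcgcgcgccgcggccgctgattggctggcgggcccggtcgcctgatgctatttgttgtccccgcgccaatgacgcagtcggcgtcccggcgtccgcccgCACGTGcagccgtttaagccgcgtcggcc
Tdrd1, chr19:56825959-56826208, plus strand: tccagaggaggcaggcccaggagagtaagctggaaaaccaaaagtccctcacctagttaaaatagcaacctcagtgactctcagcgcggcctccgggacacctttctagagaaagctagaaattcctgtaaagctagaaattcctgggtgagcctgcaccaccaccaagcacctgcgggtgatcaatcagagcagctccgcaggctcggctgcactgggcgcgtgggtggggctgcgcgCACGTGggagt

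Ring1b peaks also covered microRNA genes, and the mature sequences below are those in peaks that share a seed with another microRNA gene in a peak. Capitals mark the seed, bases 2 to 8, and U is written as in RefSeq. The miR-196 pair lies in the Hoxa and Hoxc clusters, miR-9 is abundant in the nervous system, and miR-34b and miR-449c belong to 1 family known for its role in multiciliated cells.
miR-196b-5p (Mir196b): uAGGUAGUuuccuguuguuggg
miR-196a-5p (Mir196a-2): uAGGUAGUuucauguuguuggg
miR-9-5p (Mir9-3): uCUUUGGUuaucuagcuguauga
miR-9-3p (Mir9-3): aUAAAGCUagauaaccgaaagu
miR-34b-5p (Mir34b): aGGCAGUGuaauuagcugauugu
miR-449c-5p (Mir449c): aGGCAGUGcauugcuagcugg
miR-193a-3p (Mir193a): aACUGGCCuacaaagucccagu
miR-193b-3p (Mir193b): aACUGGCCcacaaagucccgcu
Mir9-1, in another peak, encodes the same mature miR-9 sequences as Mir9-3.

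The list covered 14.2 Mb. Peak scores are the authors' own, 10 times the -log10 p of MACS for the vehicle library against its control, and they rank peaks within this list only. They ran from 50.0 to 3233 with a median of 116, and 732 peaks were tied at 3100 while 52 scored higher. Rnf2 itself (chr1:151469398-151500991) had a pair of low-scoring peaks at its start, of 427 bp with a score of 86.7 and of 760 bp with a score of 80.2, and these say nothing about the deletion. Peak lists hold no expression, so the labelled cell type could be described by occupancy only. Of 7 embryonic stem cell markers, 3 had a promoter peak, Pou5f1 (608 bp), Sox2 (452 bp) and Esrrb (2450 bp), and none was found at Nanog, Klf4, Zfp42 or Dppa5a. Of 13 fibroblast markers, 8 had one, 5 of them 2 kb or wider, such as Pdgfra (7237 bp) and Prrx1 (4622 bp). Over all protein-coding genes 27% had a promoter peak and 5.94% one of 2 kb or wider. The part of feeder chromatin in these libraries was not tested.

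Most Ring1b peaks were narrow, while a small wide class held much of the occupied sequence. The median width was 587 bp, with quartiles of 352 and 1260 bp, a narrowest peak of 111 bp and a widest of 25283 bp. Peaks under 500 bp made up 42.6% of the list (5763 of 13516, interval 41.8 to 43.5%) and 13.8% of the covered bases. At the other end, the 1758 peaks of 2 kb or wider were 13.0% of the list (12.4 to 13.6%) and held 44.0% of the bases. The 247 peaks of 5 kb or wider were 1.83% of the list (1.61 to 2.07%) and held 13.2% of the bases, about as much as all peaks under 500 bp. A class such as 1 to 2 kb includes its lower bound and not its upper one. The list thus joins many short sites to few long domains.

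**Figure D1:**
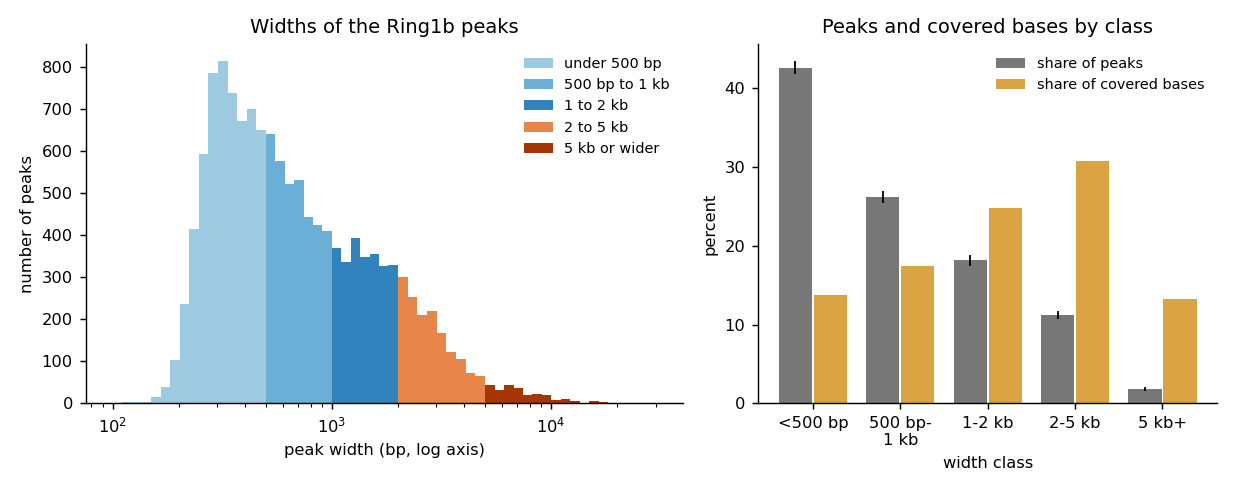
Left, number of Ring1b peaks by width in bp on a log axis, coloured by width class. Right, share of the 13516 peaks (grey, with 95% exact intervals) and of the 14.2 Mb covered (yellow) by class, where peaks under 500 bp hold 42.6% of peaks and 13.8% of bases.

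Score rose with width. The median score was 67.5 below 500 bp, 135 from 500 bp to 1 kb, 527 from 1 to 2 kb, 2404 from 2 to 5 kb and 3100 at 5 kb or wider. Across the 13516 peaks Spearman's rho between width and score was 0.87, a description over peaks of 1 library that share its depth. No peak narrower than 1229 bp scored 3100 or more, and 97.2% of the peaks of 5 kb or wider did. By the listed scores, the top of the score ranking was nevertheless not the top of the width ranking. Of the 247 peaks of 5 kb or wider, 239 scored exactly 3100. The sources used here do not say what this tied value stands for, so a score above it may not mark a stronger peak. The 10 highest-scoring peaks were 2311 to 3300 bp wide. They began with Glis1, a Krüppel-like zinc finger factor (chr4:107433666-107436965, score 3233), Mab21l1, a gene of eye development (chr3:55781520-55784609, score 3233), and Prkg1, a cGMP-dependent kinase (chr19:31663333-31665643, score 3230). The widest peak of the list, over Hoxb5 to Hoxb8, scored 2558, below the tied value.

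Wide peaks met a promoter window more often than narrow ones did. Of all peaks, 6940 (51.3%, 50.5 to 52.2%) met a promoter of the deposited tables, which are windows reaching 1 kb to either side of a start. The share was 34.4% (33.2 to 35.7%) below 500 bp, 57.1% from 500 bp to 1 kb, 64.7% from 1 to 2 kb, 74.5% from 2 to 5 kb and 88.7% (84.0 to 92.3%) at 5 kb or wider. A wider peak also reaches a window more easily. When only the summit had to lie in the window, the share over the whole list was 46.9%, and this was not computed by width class. Among promoter windows with 1 start of known strand, the summit was within 1 kb of the start in 97.1% below 500 bp and 43.1% at 5 kb or wider. The start was inside the peak in 55.1% and 93.75% of these. How much of the rise with width comes from reach was not tested. A further 2917 peaks (21.6%) lay in a gene of the deposited gene tables but at no such promoter, with a median width of 419 bp against 813 bp at promoters. The remaining 3659 (27.1%) met neither, with a median of 449 bp. The tables used here do not list every gene that a peak touches: 708 of these 3659 peaks fell on a RefSeq protein-coding gene widened by 1 kb, which leaves 2951 (21.8% of the list) away from such genes.

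Inside deposited genes, the peaks away from promoters were spread over the whole gene. Of 2259 such peaks in genes with a known strand, 21.4% had their summit in the first of 5 equal parts of the gene, 17.8%, 16.7% and 18.6% in the next 3 parts and 25.5% in the last. Most deposited genes with Ring1b had 1 peak (4600 of 6524 table rows, 70.5%), and 639 rows (9.79%) had 3 or more. Bcor, which encodes a subunit of a variant PRC1, had 19 peaks over 124618 bp (chrX:12035738-12160355). Tns1, a focal adhesion gene, and Nav1, a neuron navigator gene, had 11 each, and Tsc22d1, a transcriptional regulator, had 10. Pcdha1 (61 peaks) and Bc1 (23) have deposited spans that run over many neighbouring genes, so their counts are not those of 1 gene.

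The widest peaks lay over regulators of body plan and tissue identity and over Polycomb genes themselves. The widest (chr11:96280598-96305880, 25283 bp) covered the starts of Hoxb5, Hoxb6, Hoxb7 and Hoxb8. It was followed by peaks over Hoxa2 (chr6:52162675-52180759, 18085 bp), Pax7 (chr4:139819554-139836193, 16640 bp) and Tbx2 with the start of 2610027K06Rik (chr11:85829072-85845075, 16004 bp). Tbx2, a T-box factor of limb and heart, is in no deposited table used here although the peak covers it. Next came Cbx8 (chr11:119034023-119049789, 15767 bp), Six3, a forebrain and eye factor (15382 bp), Uncx, a homeobox factor of somites and kidney (15375 bp), and Ebf3, a neural transcription factor (15055 bp). Nkx2-3, needed for spleen and gut vessels, and Sp9, a factor of interneurons and limb buds, closed the first 10 with 13035 and 12959 bp. All 10 covered a transcription factor or a Polycomb gene.

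Over genes, 5681 of 21031 protein-coding genes (27%) had a Ring1b peak at a deposited promoter, 1249 (5.94%) had one of 2 kb or wider and 205 (0.975%) one of 5 kb or wider. Of the genes with a promoter peak, 22% reached 2 kb and 3.61% reached 5 kb, and the median width was 941 bp, each gene taking its widest promoter peak. Counting any peak on a RefSeq gene span widened by 1 kb, 7477 genes (35.6%) were touched, and the deposited gene tables held 6155 (29.3%). The promoter and gene tables shared 4962 genes, while 719 were in the promoter tables only and 1193 in the gene tables only. The lists that follow were chosen with earlier results of these data known, so each is described by its counts and median beside these values.

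Hox genes, which set position along the body axis, had a promoter peak in 36 of 39 members, of 2 kb or wider in 34 and of 5 kb or wider in 18, with a median width of 5458 bp. The other 3, Hoxa11, Hoxb4 and Hoxd4, lay under peaks of 7591, 4670 and 2225 bp but are in no promoter table used here, so all 39 were touched. The 4 clusters differed in width: the median was 9252 bp over 10 Hoxa genes, 7129 bp over 9 Hoxb genes, 4352 bp over 8 Hoxd genes and 3871 bp over 9 Hoxc genes. Genes of 1 cluster share peaks, so these are not independent values.

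Other families of transcription factors that build tissues also had list medians of 4 kb or more, against 941 bp over all genes. Pax genes, paired-box factors of nervous system, muscle and kidney, had a promoter peak in 8 of 9 members, all 8 at least 2 kb wide, from Pax7 at 16640 bp to Pax8, a thyroid and kidney factor, at 2749 bp; Pax4 had none. Homeobox genes of the Dlx, Nkx, Lhx, Irx and sine oculis (Six3 and relatives) families had 35 of 44, all 35 at least 2 kb and 23 at least 5 kb wide, with a median of 6499 bp. Among the others, Irx2, Irx5, Nkx1-1, Dlx4, Lhx3, Nkx2-6 and Nkx6-3 were touched by a peak outside the promoter tables, of 1128 to 6544 bp, and Six4 was not touched. Gata genes, zinc finger factors of blood, heart and endoderm, had 4 of 6, led by Gata3 (chr2:9874043-9885361, 11319 bp) and Gata6 (8313 bp). T-box genes had 10 of 16 with a median of 4440 bp, led within the promoter tables by Tbx1, a pharyngeal arch factor (7308 bp), beside the 16004 bp peak over Tbx2, while T, the Brachyury factor of mesoderm, had 3634 bp.

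Within families the width varied widely. Forkhead genes had a promoter peak in 29 of 44 members, of 2 kb or wider in 18, with a median of 4136 bp. Foxb1, a factor of the hypothalamus, had 12908 bp and Foxa2, an endoderm and floor plate factor, 7516 bp, against 305 bp at Foxr1. Sox genes had 17 of 19, 12 of them 2 kb or wider. Sox3, a neural progenitor factor, had 6867 bp and Sox9, a cartilage and testis factor, 6293 bp, whereas Sox2, which maintains pluripotency, had the narrowest at 452 bp with a score of 69.7. Neural and mesodermal bHLH genes had 28 of 37, 20 of them 2 kb or wider but only 3 at 5 kb or wider: Hand1, a heart factor (7434 bp), Atoh1, a hair cell and cerebellar factor (6215 bp), and Hand2, a heart and limb factor (5097 bp). Taking these 8 regulator families together, 167 of 214 genes had a promoter peak, 140 one of 2 kb or wider and 68 one of 5 kb or wider, with a median of 4483 bp. By any peak on the RefSeq span, 188 of the 214 were touched (87.9%, beside 35.6% of all genes). These regulators made up 0.310% of the 1290 genes whose widest promoter peak was under 500 bp and 33.2% (26.8 to 40.1%) of the 205 with one of 5 kb or wider.

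**Figure D2:**
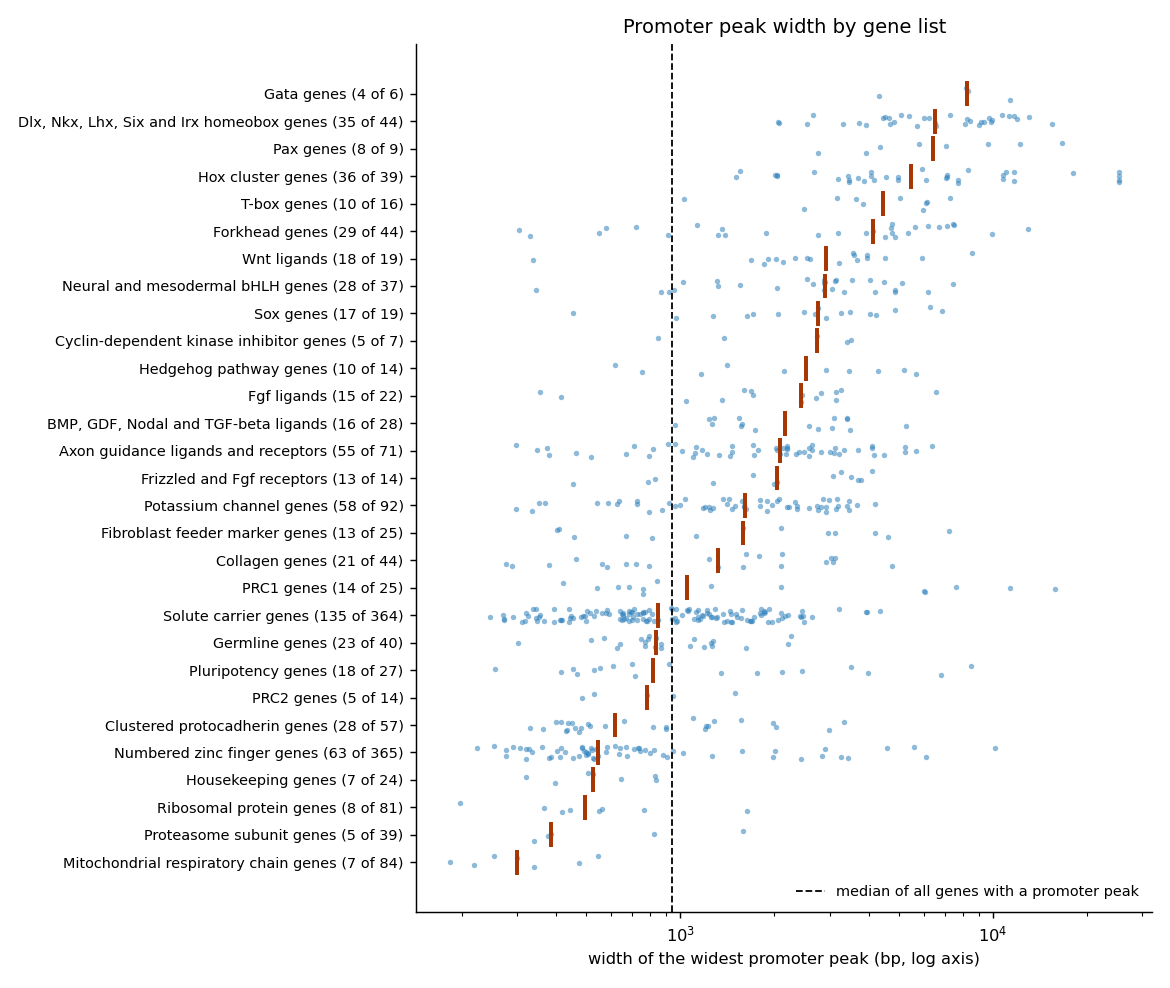
Width in bp (log axis) of the widest promoter peak of each gene, by gene list, with the number of members that have one. Points are genes, red bars are list medians and the dashed line is the median of all 5681 genes with a promoter peak (941 bp); the homeobox and Gata lists lie to the right and the mitochondrial and ribosomal lists to the left.

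Signalling genes had promoter peaks in most members, of intermediate width. Among ligands, Wnt genes, which encode secreted morphogens, had a promoter peak in 18 of 19 members with a median of 2914 bp, led by Wnt5a (8573 bp). Fgf ligands had 15 of 22 with a median of 2423 bp, led by Fgf9 (6577 bp). BMP, GDF, Nodal and TGF-beta ligands had 16 of 28 with a median of 2157 bp, led by Gdf6, a joint and skull factor (5285 bp). Nodal, Gdf3 and Bmp5 had no peak on their spans. Of the 14 hedgehog pathway genes 10 had one, and the ligands Dhh (5650 bp) and Ihh (5192 bp) had wider peaks than the receptor Ptch1 (4273 bp). The ligand Shh lay under a peak of 5354 bp but is in no promoter table used here. Frizzled and Fgf receptors had 13 of 14 with a median of 2032 bp, and none at 5 kb or wider. Ligands and receptors of axon guidance had 55 of 71 with a median of 2081 bp, led by the receptor Nrp2 (6366 bp). Effector genes of differentiated cells were narrower still: potassium channels had 58 of 92 with a median of 1610 bp and collagens 21 of 44 with a median of 1316 bp, and neither list had a peak of 5 kb or wider.

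Polycomb genes were uneven. Of 25 PRC1 genes 14 had a promoter peak and 5 had one of 5 kb or wider, among them Cbx8, Bmi1, a canonical Pcgf subunit (chr2:18674855-18682482, 7628 bp), and Bcor (6051 bp). Cbx2, next to Cbx8 on chromosome 11, had 2096 bp. Kdm2b, which binds unmethylated CpG and recruits variant PRC1, had 685 bp, and Ring1, the paralogue of Rnf2, had no peak on its span. PRC2 genes had 5 of 14 promoter peaks, all under 2 kb, from 484 bp at Jarid2 to 1494 bp at Phf19, with Ezh2, the methyltransferase, at 785 bp and Suz12 at 531 bp. Over all genes 5.94% had a promoter peak of 2 kb or wider, so finding none among 14 PRC2 genes says little.

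Pluripotency genes had a promoter peak in 18 of 27 members, with a median of 819 bp. The widest were at Otx2, which rises on exit from the naive state (8480 bp), Gbx2 (6827 bp), Myc (3981 bp) and Prdm14 (3516 bp). In all, 6 of the 18 were 2 kb or wider. Cyclin-dependent kinase inhibitors had 5 of 7, with Cdkn1c at 3520 bp, Cdkn2c at 3401 bp and Cdkn2a, the Ink4a/Arf locus, at 2741 bp, and none at Cdkn1a. Germline genes had 23 of 40 (57.5%) with a median of 834 bp. Only Tdrd6 (2256 bp) and Tdrd5 (2211 bp) reached 2 kb, and only 1 of the 23 lay in a multi-peak domain (4.35%, against 26.1% of all genes with a promoter peak). Their median width lay below the 941 bp of all genes. Their upper quartile was 1221 bp, and single members such as Ddx4 and Mael lay above the 941 bp.

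Promoter peaks in lists made up mostly of genes used by every cell were narrow, and few except in the housekeeping list. Ribosomal protein genes had a promoter peak in 8 of 81 members (median 497 bp), mitochondrial respiratory chain genes in 7 of 84 (301 bp), proteasome subunits in 5 of 39 (387 bp) and housekeeping genes in 7 of 24 (525 bp, 29.2%, near the 27% of all genes). The widest were Rpl7 (1633 bp) and Psmb8, an immunoproteasome subunit (1583 bp). No member of these 4 lists reached 2 kb, and Actb and Gapdh had no peak on their spans. Solute carriers and numbered zinc finger genes, large families without a shared developmental role, had medians below the 941 bp of all genes. Solute carriers had 135 of 364 (37.1%) with a median of 849 bp. Numbered zinc finger genes had 63 of 365 (17.3%) with a median of 544 bp. Among the zinc finger genes Zfp503, a factor of striatum and limb, stood out with 10156 bp. Olfactory receptors had 2 of 1104, and of 353 vomeronasal receptors none had a promoter peak, which allows a share of up to 1.04%. How well reads can be placed in these large families was not tested.

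Wide promoter peaks were more often in the authors' class with Ring1b but no KAP1 at the promoter. The share of genes in that class was 11.0% below 500 bp, 9.77% from 500 bp to 1 kb, 14.9% from 1 to 2 kb, 19.7% from 2 to 5 kb and 31.7% at 5 kb or wider. The class rests on a KAP1 list of another cell line and library.

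Many peaks stood close together. Peaks were chained into domains where the gap to the next peak was at most 5 kb, while the median gap was 53247 bp. Of 10381 domains, 8310 were single peaks and 2071 held 2 or more, and these took in 5206 peaks (38.5%, 37.7 to 39.3%) and 41.9% of the covered bases. Peaks of 5 kb or wider were in multi-peak domains in 66.0% of cases, against 34.7 to 39.2% in the other 4 width classes. The 104 domains of 5 or more peaks had a median span of 16125 bp, and 79.8% held a peak of 2 kb or wider. In 88.5% the start of a deposited promoter lay within the span, gaps between peaks included. The start of a gene of the 8 regulator families lay in 30 of these 104 domains (28.8%), in 59 of 1967 domains of 2 to 4 peaks (3.00%) and in 42 of 8310 single peaks (0.505%). A larger domain holds more starts of any kind, and this was not adjusted for.

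The 4 Hox clusters made up 4 of the 5 longest domains and the clustered protocadherins the other. At Hoxc (chr15:102952648-103016317), 21 peaks of 294 to 10989 bp covered 84.2% of 63670 bp with scores from 54.1 to 3100. At Hoxa (chr6:52189834-52267035), 17 peaks of 271 to 11674 bp covered 79.1% of 77202 bp, the longest span. From Evx2 to Hoxd3 (chr2:74654813-74716144), 15 peaks of 386 to 8308 bp covered 83.8% of 61332 bp, and a neighbouring domain with Mir10b and the Hoxd4 gene (chr2:74723354-74754167) added 8 peaks. At Hoxb (chr11:96269787-96334302), 10 peaks of 762 to 25283 bp covered 71.5% of 64516 bp. Each of these clusters mixed peaks at 3100 with peaks scoring under 100. Gaps of a few bases split them, such as that between the 7733 bp peak next to the Hoxa9 start and its 4344 bp neighbour.

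The gamma protocadherins, cell adhesion proteins that give neurons their identity, had a different shape. Their domain (chr18:37720445-37769067) held 17 peaks of 248 to 3329 bp that covered 42.0% of 48623 bp, against 79.1% in the Hoxa domain. Of 21 Pcdhg genes 18 had a promoter peak with a median of 858 bp, and 2 reached 2 kb, Pcdhgb6 (3329 bp) and Pcdhgb7 (2995 bp). Of 14 Pcdha genes 9 had one (median 473 bp), and of 22 Pcdhb genes 1 did (401 bp), although a peak lay on the span of others such as Pcdhb17 (1041 bp). Over all genes with a promoter peak the median was 941 bp and 22% reached 2 kb, so the gamma protocadherin median lay near that of all genes. The genes of this cluster are similar in sequence and overlap in the annotation, so peaks are assigned to single members with some uncertainty.

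Domains around single regulators came next. Tfap2a, a neural crest and skin factor, had 11 peaks over 43199 bp (chr13:40702274-40745472), the widest of 11902 bp. Vax2os, antisense to a ventral eye factor, had 11 over 19619 bp. Bmi1 with Commd3 and Spag6 had 10 peaks that covered 86.7% of 29352 bp (chr2:18671051-18700402). Pax6, an eye and forebrain factor, had 7 over 32182 bp.

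**Figure D3:**
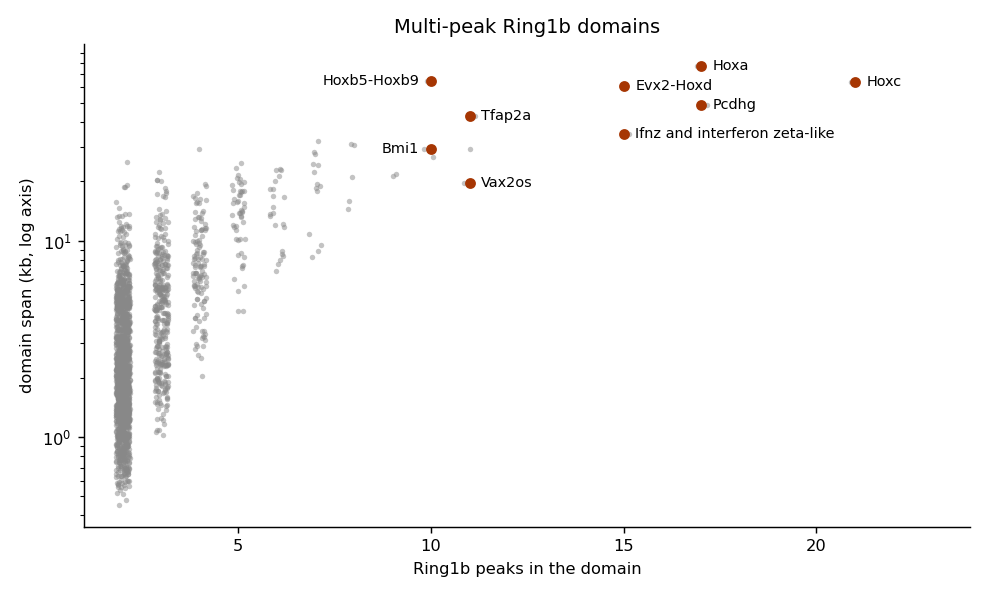
Span of the 2071 multi-peak domains in kb (log axis) against the number of Ring1b peaks in each, with a small sideways shift to separate points. Named domains are in red; the 4 Hox cluster domains span 61332 to 77202 bp, and most domains of 2 peaks lie far lower.

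The summit was central at the median in every width class, but its spread within the peak differed between classes with no single trend. The median position was 0.497 of the width, and between 0.487 and 0.501 in each of the 5 width classes. In 63.8% of all peaks the summit was between 0.333 and 0.667 of the width, and by class in 73.7% below 500 bp, 47.6% from 500 bp to 1 kb, 61.3% from 1 to 2 kb, 71.7% from 2 to 5 kb and 45.3% at 5 kb or wider. The outer 20% at either end held 14.98% of the summits at 5 kb or wider and 12.1% from 500 bp to 1 kb, beside 7.33% over the list. Among the widest peaks, the Hoxb5 to Hoxb8 summit stood at 0.10 of the width and that of Hoxa2 at 0.82.

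Where a promoter window held 1 start with a known strand (4034 starts), summits lay mostly inside the gene. The median distance of the summit from the start was 142 bp downstream, and 67.4% of summits (65.9 to 68.8%) were downstream. The median distance grew from 33 bp below 500 bp to 70, 234, 368 and 439 bp in the wider classes. The share downstream was 58.6%, 62.9%, 74.8% and 76.5% up to 5 kb, and 63.2% (54.8 to 71.1%) at 5 kb or wider. Peaks reached a median of 330 bp upstream and 693 bp downstream of the start, with upstream medians of 140.5, 235, 436, 976 and 3215 bp and downstream medians of 223, 475, 977, 1693 and 4120 bp from the narrowest to the widest class. Wider peaks thus reached further on both sides of the start, and further downstream than upstream in each class.

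Some wide peaks had their summit far from the start whose promoter window they met. At Hoxa2 the summit was 12662 bp upstream, under a peak that also covers part of the Hoxa3 gene. At Hoxa9 it was 6754 bp upstream. There the 7733 bp peak met the promoter window, while the start lay under the neighbouring peak of 4344 bp. At Msx1, a homeobox factor of limb and teeth, the summit was 4443 bp upstream and at Gata2 4336 bp. At Nkx6-1, a factor of pancreatic beta cells and motor neurons, it was 5689 bp downstream, and at Zfp503 4515 bp downstream. For such peaks the highest point and the named start are different places.

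**Figure D4:**
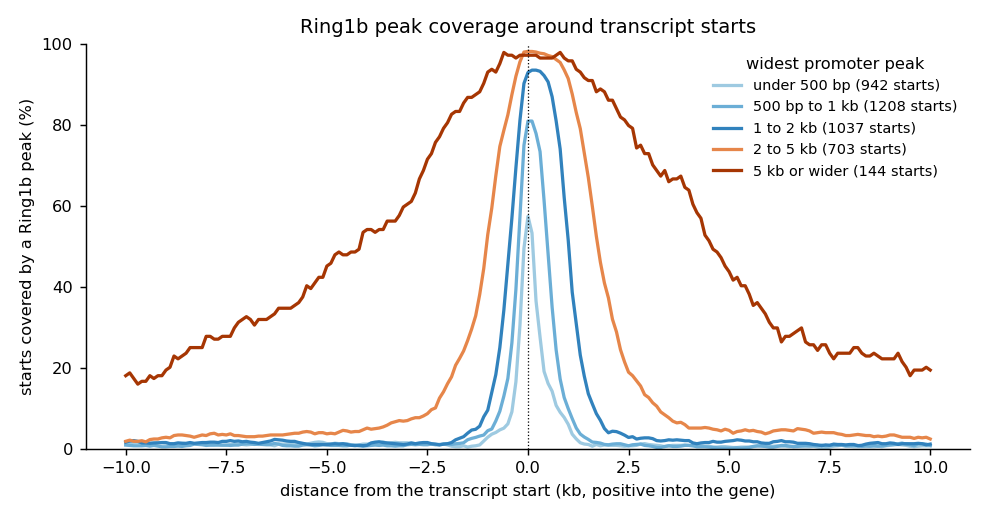
Share of transcript starts covered by any Ring1b peak, by distance from the start in kb (positive into the gene), for 4034 starts grouped by the width of their widest promoter peak. At 2.5 kb into the gene the share is 79.9% for peaks of 5 kb or wider, 18.9% for 2 to 5 kb and 2.80% for 1 to 2 kb.

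The sequence at RefSeq starts differed between starts with and without Ring1b. Over 300 bases (250 before to 50 after the start), the median CpG count was 8 at the 14870 starts without a peak within 1 kb, 23 at the 5618 with one, and 14 over all 20488. By width it was 20, 23, 24 and 25 up to 5 kb and then 19 at 5 kb or wider, with quartiles of 13 and 26 that overlapped those of every other class. CpG content was thus high at bound starts of every width. The Pax7 and Cbx8 promoters printed above are examples from the widest class, and Nanog is a CpG-poor start. Both motifs below hold a CpG, and their relation to CpG content was not tested.

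The E-box CACGTG, a palindrome that reads the same on both strands, was less frequent at wider peaks. It was in 8.03% of all starts and in 6.96% of those without a peak. Among starts with a peak it was in 12.5% (10.8 to 14.4%) below 500 bp, 12.1% from 500 bp to 1 kb, 10.4% from 1 to 2 kb, 7.65% (6.06 to 9.49%) from 2 to 5 kb and 7.89% (4.49 to 12.7%) at 5 kb or wider. The E2F-like motif TCCCGC, or GCGGGA on the other strand, was in 26.5% of all starts and 20.6% of those without a peak. With a peak it was in 38.7%, 40.3%, 44.3% and 47.2% up to 5 kb and in 32.1% (25.5 to 39.2%) at 5 kb or wider. Matches of the 2 motifs can overlap by at most 1 base, and a match is not a bound site.

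**Figure D5:**
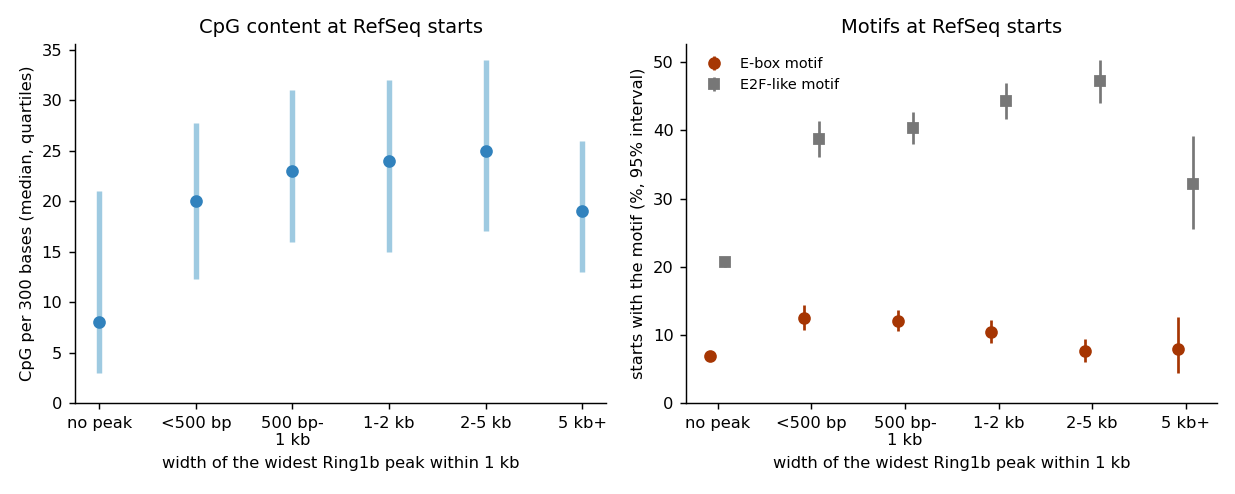
Left, CpG dinucleotides per 300 bases at RefSeq starts (median and quartiles) by the width of the widest Ring1b peak within 1 kb. Right, share of starts that hold the E-box or the E2F-like motif with 95% exact intervals; the E-box falls from 12.5% at peaks under 500 bp to 7.65% at 2 to 5 kb.

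The E-box seen in the printed germline promoters was in 10 of 22 germline genes with a peak and a sequence (45.5%): Ddx4, Hormad1, Mael, Mov10l1, Slc25a31, Stag3, Sycp1, Sycp3, Taf7l and Tdrd1. In this paragraph a peak is one within 1 kb of a RefSeq start, which differs from the promoter tables used for the gene lists above. Stag3, for example, is in no promoter table used here. Of 11 without a peak, 3 had it (27.3%). Over all genes it was in 608 of 4805 with a peak (12.7%) and 936 of 12048 without (7.77%). PRC1 genes also had 5 of 11 with a peak, among them Bmi1, Pcgf2 and Cbx8, whose printed promoter holds 1. Of 9 PRC1 genes without a peak, 2 had it (22.2%). Of 7 Pax genes and 8 T-box genes with a peak, none had it. Beside 12.7% over all genes with a peak, finding none in so few genes says little.

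Of 963 RefSeq microRNA hairpins, 44 met a Ring1b peak (4.57%), 19 of them a peak of 2 kb or wider and 3 one of 5 kb or wider. The 3 were Mir196b beside Hoxa9 (chr6:52230081-52230165, peak of 7733 bp), Mir9-3 (chr7:79505264-79505353, 6809 bp) and Mir1247 (chr12:110278048-110278129, 5823 bp). The other members of the printed seed pairs lay in narrower peaks. Mir196a-2 in the Hoxc cluster had 1913 bp, Mir9-1 had 2662 bp and Mir449c, in Cdc20b, had 4863 bp, while Mir34b had 818 bp. Mir193a and Mir193b had 1649 and 2740 bp. Mir10a, upstream of Hoxb4, lay in a peak of 4670 bp, and Mir129-2 and Mir129b, on opposite strands of 1 locus, in a peak of 4974 bp. The neuronal Mir137 and the skin Mir203 had 890 and 1309 bp. Some of these hairpins lie within other genes or gene clusters, so the peak cannot be assigned to the microRNA gene alone.

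Wide peaks at no deposited promoter or gene were few, 227 of 3659 at 2 kb or wider (6.20%). The widest on an ordinary stretch lay between genes at chr6:51170837-51180757 (9921 bp, score 3100), 251912 bp from the nearest protein-coding gene, Nfe2l3. The next was 2120 bp from Tfap2a and inside its domain (chr13:40702274-40711682, 9409 bp). Another lay at chr2:116550920-116560293 (9374 bp), 318400 bp from Tmco5, and another 1276 bp from Meis1, a Hox cofactor (chr11:18870413-18879152, 8740 bp). The highest-scoring such peaks lay 2052 bp from Atoh1 (score 3224), 2566 bp from Hand2 (3194), 4853 bp from Hoxb13 (3165), 28049 bp from Polg, a mitochondrial DNA polymerase (3165), and 27028 bp from Rasgrf1, an exchange factor (3158). Of these 5, 3 thus lay within 5 kb of a developmental regulator and outside its start window. The peak named by its distance from Polg (chr7:79495960-79498776) was in the same multi-peak domain as the 6809 bp peak over Mir9-3 (chr7:79503590-79510398). Over the 3645 peaks on named chromosomes that met no deposited promoter or gene, the median distance to the nearest protein-coding gene was 11630 bp. Of these, 788 were more than 50 kb away.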

How the data were processed

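Per the submitters' processing notes, the authors' tools on build mm10 (GRCm38) were Bowtie2, CASAVA 1.8.2, bedtools 2.16.2 and MACS 1.4.2. Per the file headers, the vehicle Ring1b library was called against the tamoxifen Ring1b fl/fl library, 1 library each. The deposited values are a score per peak (10 times -log10 p, as the authors' MACS wrote it) and a summit position, another deposited value. The authors also deposited 6 tables of promoters and genes, whose scores are in the same deposited unit; the 4 with Ring1b were used. The sources used here do not give read depths, so the precision at a site is unknown.

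Positions were read as 1-based with Python 3.11.15, pandas 2.3.3, numpy 2.4.6 and scipy 1.17.1, and figures were drawn with matplotlib 3.10.9. Overlap meant at least 1 bp. All 6120 promoter rows and 6524 gene rows named a region and summit of the list, 48 and 53 of them without a RefSeq match by accession. Each gene took its widest promoter peak. Names, strands, promoters and microRNAs came from RefSeq tables of GRCm38.p6. Exons, introns and untranslated regions were not placed. The chaining and overlap steps were tested on simulated data.

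The members and the 31 gene lists were chosen with earlier results of these data known. Named genes were 27 fixed genes, the 4 widest promoter peaks per list and the narrowest, genes at the 10 widest peaks and largest domains, the 10 highest scores, the widest and highest-scoring peaks outside the tables and the farthest summits. Some genes that meet this rule are not reported here. Members without a promoter peak, genes with most peaks, cell type markers, microRNAs and genes with an E-box were named after their values were seen. Alternatives were the upper 50% of scores, autosomes, merged peaks, gaps of 2 and 10 kb, stricter promoter overlap, the gene tables and, chosen after seeing the data, leaving out chromosome 1.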

Additional observations from a re-analysis of the deposited data

How the results depend on the processing

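Among peaks with a score at or above the list median, 26.0% were 2 kb or wider (13.0% in the whole list) and these held 54.7% of the bases (44.0%), 26.6% were in multi-peak domains (38.5%), 62.7% met a deposited promoter (51.3%) and 17.9% of protein-coding genes had one (27.0%). Merging peaks no more than 500 bp apart gave 16.7% at 2 kb or wider with 50.6% of the bases. A gap of 2 or 10 kb in place of 5 kb put 31.9% or 45.4% of the peaks in multi-peak domains, and leaving out chromosome 1, a choice made after seeing the data, put 37.7% there. Asking for the summit inside the window gave 46.9% of peaks and 25.3% of genes, and asking for 50% of the peak inside it gave 46.0% of peaks. On autosomes only, 27.7% of genes had a promoter peak, and the whole gene tables held 29.3%. The median summit position stayed between 0.497 and 0.500 in the alternatives run. No paired analysis was possible because each group is 1 library and no test was made. Peaks split by short gaps, ties at the score of 3100 and the unknown depth limit how finely widths and scores can be ranked.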

Other observations

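Peaks were unevenly spread over chromosomes. Chromosome 1 held 1418 peaks, or 1.21 per protein-coding gene, while chromosomes 2 to 19 and X had between 0.331 (X) and 0.915 (chromosome 12). Of the peaks on chromosome 1, 44.7% met a deposited promoter and 45.9% were in multi-peak domains, against 51.3% and 38.5% over the list. Peaks at no promoter numbered 0.667 per gene there, and at most 0.44 on any other chromosome. The densest of 277 stretches of 10 Mb was chromosome 1 from 130 to 140 Mb, with 221 peaks, of which 30.3% met a promoter, beside a median of 42 per stretch. The next, on chromosome 11 from 90 to 100 Mb, had 156. Rnf2 is on chromosome 1 at 151469398 to 151500991, and any link to it was not tested. Chromosome Y had 7 peaks, and 17 lay on unplaced contigs.

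The fifth domain by number of peaks was unlike the others. It lay over a cluster of interferon zeta genes (chr4:88771559-88806425) with Ifnz, Gm13275, Gm13276, Gm13277, Gm13278, Gm13285, Gm13288 and Gm13290. Its 15 peaks were 594 to 2718 bp wide, covered 66.7% of 34867 bp and scored between 53.5 and 1266, so none reached 3100. These genes are tandem copies of 1 family, and how well reads can be placed among them was not tested.

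The thirteenth widest peak of the list also stood apart. It lay on Gm21188 (chr13:120025735-120037987, 12253 bp), met no deposited promoter, scored 2065 and had its summit at 0.97 of its width, whereas the other 19 of the 20 widest peaks met a deposited promoter. Both regions carry predicted genes, and neither is named here as a Polycomb target.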
